A study of Mus musculus with 8 samples.

Results

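Transfer RNAs for leucine, serine and selenocysteine were taken from the deposited small RNA tables by their names, which give an amino acid and an anticodon. Every entry for tRNA whose amino acid was Leu, Ser or SeC was kept, which gave 55 of the 489 entries found in either table. These were 29 Leu, 24 Ser and 2 SeC entries among 393 for tRNA, beside 96 for snoRNA. The Hepa 1-6 table held all 55, and the hepatocyte table held 54, without chr13.tRNA950-SerAGA. Each entry is 1 tRNA gene with 200 bases of flank on each side, and the entries are called genes here.

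The study profiled RNA after loss of KAP1, the corepressor protein encoded by Trim28, in a mouse hepatoma line and in mouse liver cells. Small RNA was sequenced from Hepa 1-6 cells and from primary hepatocytes processed straight after purification, with 1 library for each of 4 conditions. In Hepa 1-6 cells the conditions were Kap1 knock-down (KD), in which a pLKO lentiviral vector carried an shRNA against Kap1, and a control that received the empty vector. Both were selected with puromycin and collected 5 days after transduction, although another label field names a plasmid transfection. In hepatocytes the conditions were wild type (WT) and Kap1 knock-out (KO), and the driver of the knock-out and the age and number of the animals are not in the labels. Ribosomal RNA was removed with Ribo-Zero from Hepa 1-6 samples and with GeneRead from hepatocyte samples, and the cell types were tabulated separately, so their values are only set side by side. Polyadenylated RNA was also sequenced from 4 Hepa 1-6 samples, 2 of them control and 2 Kap1 KD.

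Transfer RNA carries an amino acid to the ribosome and reads a codon of the message through its anticodon. Between the anticodon stem and the T stem lies the variable arm, which is short in most tRNAs and long in those for leucine, serine and selenocysteine. Seryl-tRNA synthetase recognises its tRNAs largely by this arm rather than by the anticodon, and it also charges the selenocysteine tRNA with serine, which other enzymes then turn into selenocysteine. Leucine and serine are each written by many codons, so each needs tRNAs with several anticodons, while selenocysteine is inserted at UGA codons of selenoprotein messages. RNA polymerase III makes all of these tRNAs. Liver secretes selenoprotein P, which carries selenium to other tissues.

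The sequence of each gene was read from the mm9 genome where its chromosome, anticodon and length, with the numbering order of the genes, left 1 locus. This placed 51 of the 55 genes, 26 by chromosome, anticodon and length alone and 25 with the order as well. Below are the genes with the most counts over the 4 libraries for each leucine anticodon and for selenocysteine, shown as the most counted example of each of these anticodons. They are written 5′ to 3′ as the gene reads, with the long variable arm in capitals.
chr13.tRNA63-LeuAAG: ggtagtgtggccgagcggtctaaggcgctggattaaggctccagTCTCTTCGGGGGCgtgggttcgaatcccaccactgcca
chr13.tRNA65-LeuCAA: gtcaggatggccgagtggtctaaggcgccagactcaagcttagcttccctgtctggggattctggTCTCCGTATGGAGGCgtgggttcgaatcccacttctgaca
chr1.tRNA698-LeuCAG: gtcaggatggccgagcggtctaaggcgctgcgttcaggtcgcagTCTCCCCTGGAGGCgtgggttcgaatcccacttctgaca
chr10.tRNA1316-LeuTAA: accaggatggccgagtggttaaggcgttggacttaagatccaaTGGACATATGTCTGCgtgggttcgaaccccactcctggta
chr14.tRNA703-LeuTAG: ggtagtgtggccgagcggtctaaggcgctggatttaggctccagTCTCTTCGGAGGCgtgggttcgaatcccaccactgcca
chr7.tRNA86-SeCTCA: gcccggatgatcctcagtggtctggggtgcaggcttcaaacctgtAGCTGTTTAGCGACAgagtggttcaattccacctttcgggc

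In mm9, the Leu genes of this set lay at chr13:21262075-21262156 (plus strand, AAG), chr13:21292073-21292177 (plus, CAA), chr1:172968745-172968827 (plus, CAG), chr10:12642369-12642451 (minus, TAA) and chr14:51702505-51702586 (minus, TAG). The SeC gene lay at chr7:19886593-19886678 (plus strand). The LeuTAA gene fell inside an exon of the lincRNA gene B230208H11Rik on the same strand. The other 5 lay outside annotated genes. No locus was assigned to the leading SerGGA gene, chr11.tRNA832-SerGGA.

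The variable arm was 13 to 15 bases long in 48 of the 51 located genes, which used 18 different arm sequences. All 10 LeuCAG genes had the same arm, which 1 of the 4 LeuCAA genes shared. The 4 LeuCAA genes were 105 to 107 bases long, since tRNA genes with this anticodon hold an intron beside the anticodon. Of all 55 genes, 44 were 82 or 83 bases long. The 4 genes with no locus were chr5.tRNA13-SeCTCA at 71 bases, chr11.tRNA832-SerGGA at 73, chrX.tRNA462-LeuTAA at 83 and chr5.tRNA1135-SerAGA at 127, and their arms were not read. At 71 and 73 bases, chr5.tRNA13-SeCTCA and chr11.tRNA832-SerGGA were shorter than every located gene with a long arm, of which the shortest had 82 bases.

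The label of a long variable arm did not hold for 3 located LeuAAG genes, chr16.tRNA4, chr16.tRNA829 and chr19.tRNA2. They were 72 bases long, identical to each other, and had an arm of 5 bases. The nearest proline tRNA gene in the same scan matched them at 68 of 72 bases. Both sequences are printed with the anticodon in capitals, since the anticodon is what gives the Leu name to a gene otherwise close to a proline tRNA.
chr16.tRNA4-LeuAAG: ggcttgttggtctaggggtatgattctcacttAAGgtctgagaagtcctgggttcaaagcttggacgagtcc
ProAGG gene: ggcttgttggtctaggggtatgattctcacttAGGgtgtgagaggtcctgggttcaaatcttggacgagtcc

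The LeuAAG copy shown lay at chr16:3449838-3449909 and the ProAGG gene at chr1:78294370-78294441, both on the plus strand. The 3 short genes are kept in all counts below because the rule took genes by name. They held 497 of the 16513 LeuAAG counts in Hepa 1-6 control cells and 3 of 360 in WT hepatocytes, where each had 1 count.

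On chromosome 13, 19 of the located genes lay within 2.35 Mb, at chr13:21261905-23613820, a span that also held 24 Hist1h histone genes. A pair of LeuAAG genes there, chr13.tRNA62-LeuAAG and chr13.tRNA63-LeuAAG, lay 88 bases apart, so that their flanked windows overlapped. They had 7648 and 7649 counts in Hepa 1-6 control, 5763 and 5764 after Kap1 KD, and the same count as each other in each hepatocyte library, 120 in WT and 103 in Kap1 KO. The windows of these genes therefore cannot be told apart in the counts. On chromosome 8, chr8.tRNA414-LeuCAG and chr8.tRNA1008-LeuCAG lay 290 bases apart on opposite strands, also with overlapping windows, but had 990 and 432 counts in Hepa 1-6 control. The flanks of chr7.tRNA559-LeuAAG and chr11.tRNA401-LeuTAG reached an exon of Polr3e, a subunit gene of RNA polymerase III, and of Hes7.

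Many of the genes were exact copies of each other. The 51 located genes had 33 different sequences, of which 7 were shared by 25 genes and 26 belonged to 1 gene each. The 6 identical SerAGA genes ranged from 4 counts for chr4.tRNA16 to 28794 for chr13.tRNA978 in Hepa 1-6 control, a ratio of 7199. In the LeuCAG set of 3 copies the counts ran from 432 to 7778, and in the long-armed LeuAAG set of 3 copies from 115 to 7648. In a LeuCAG set of 5 copies, chr1.tRNA701, chr1.tRNA703 and chr1.tRNA705 had 41 counts each. How the authors assigned reads that fit several copies is not given in the sources used here, so the count of a single copy is uncertain and sums over an anticodon are given first below.

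**Figure D1:**
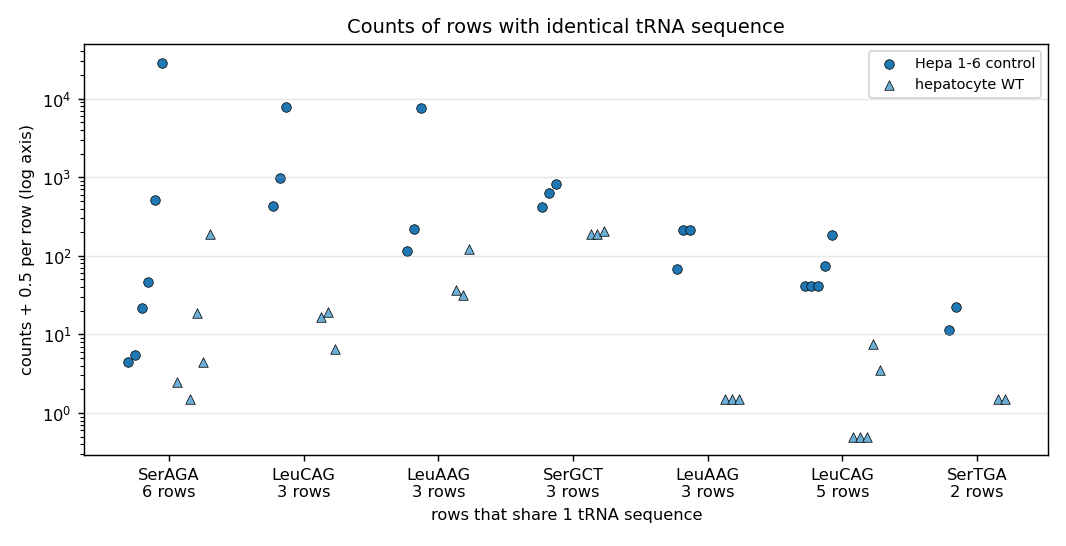
Counts plus 0.5 on a log axis for each gene in the 7 sets of genes that share 1 tRNA sequence, in the Hepa 1-6 control and WT hepatocyte libraries. In the SerAGA set the control counts run from 4 to 28794, while the 3 SerGCT copies run from 422 to 811.

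The Hepa 1-6 table summed to 26249204 counts in control and 29223566 after Kap1 KD, and the hepatocyte table to 3028467 in WT and 11006899 in Kap1 KO. Of these, tRNA took 1059106, 653800, 46617 and 71380 counts, or 4.03%, 2.24%, 1.54% and 0.649%, and snoRNA took the rest. In each pair the tRNA share was lower in the library labelled Kap1 KD or Kap1 KO. Leu, Ser and SeC genes held 179172 counts in control, 109297 in Kap1 KD, 5813 in WT and 10473 in Kap1 KO libraries. Hepatocyte values thus rest on far fewer counts, with a median of 33.5 counts per gene in WT against 249 in Hepa 1-6 control. Of the 54 genes in the hepatocyte table, 3 had no count in WT and 1 had none in Kap1 KO.

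As a share of tRNA counts, which needs no scaling between libraries, the 3 amino acids together held 16.9% in control (95% exact binomial interval 16.8% to 17.0%) and 16.7% in Kap1 KD Hepa 1-6 cells (16.6% to 16.8%). They held 12.5% in WT (12.2% to 12.8%) and 14.7% in Kap1 KO hepatocytes (14.4% to 14.9%). All such intervals cover counting error only, since PCR reads are not independent molecules and each condition has 1 library. The share was thus nearly the same in both Hepa 1-6 libraries and higher in the Kap1 KO than in the WT hepatocyte library. As a share of all counts in the table, the values were 0.683% in control and 0.374% in Kap1 KD, and 0.192% in WT and 0.0951% in Kap1 KO. The hepatocyte order thus turns with that share, and also when the gene with the most counts is left out (9.72% in WT and 7.05% in Kap1 KO). A single gene, chr10.tRNA1095-SerTGA, held 48.0% and 48.7% of the Leu, Ser and SeC counts in control and Kap1 KD, and chr7.tRNA86-SeCTCA held 24.4% and 55.9% in WT and Kap1 KO.

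**Figure D2:**
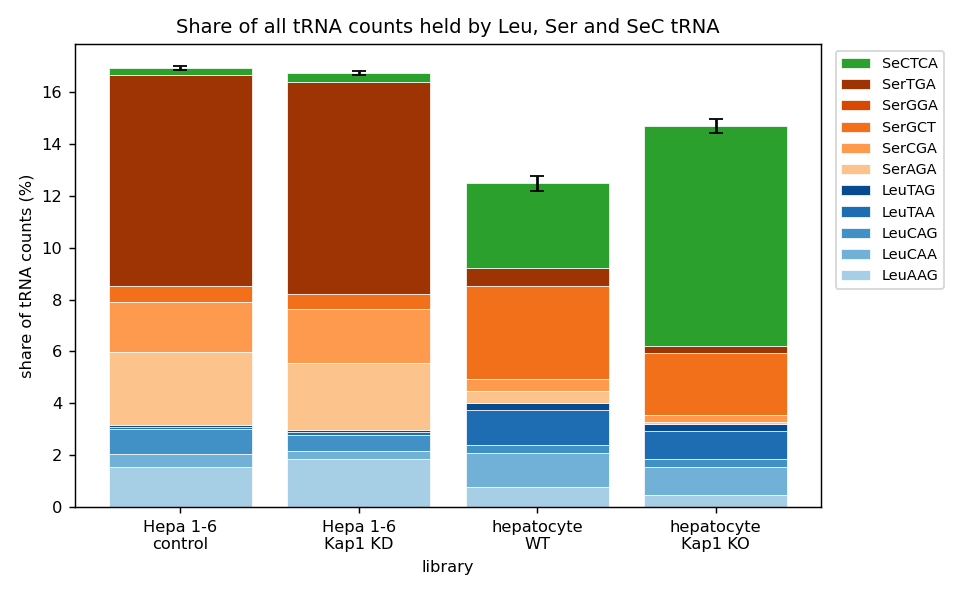
Share of all tRNA counts, in percent, held by Leu, Ser and SeC tRNA in each of the 4 libraries, stacked by anticodon, with the 95% exact binomial interval of the total. SerTGA is the largest part in both Hepa 1-6 libraries (8.12% and 8.15%), and SeC holds 3.24% in the WT and 8.44% in the Kap1 KO hepatocyte library.

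Serine tRNAs led in Hepa 1-6 cells, at 13.5% of tRNA counts in control and 13.4% in Kap1 KD, and leucine tRNAs held 3.18% and 2.96%. In hepatocytes serine held 5.21% in WT and 3.01% in Kap1 KO, leucine 4.02% and 3.22%, and selenocysteine 3.24% and 8.44%. The selenocysteine share in Hepa 1-6 cells was 0.273% and 0.338%. By anticodon, SerTGA, SerAGA and SerCGA were the most counted in Hepa 1-6 control, with 85981, 29420 and 20654 counts. In WT hepatocytes SerGCT came first with 1662 counts and SeC second with 1511, and SerTGA had 324. These orders describe libraries made with different rRNA removal kits, whose part in the difference was not tested.

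**Figure D3:**
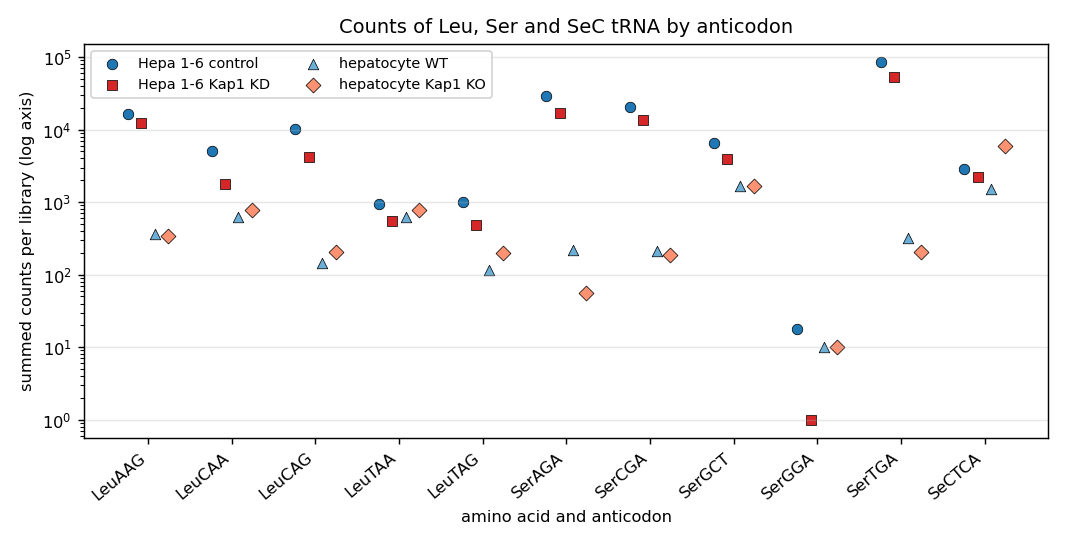
Summed counts per library on a log axis for each of the 11 anticodons, in control and Kap1 KD Hepa 1-6 cells and in WT and Kap1 KO hepatocytes. SerTGA is highest in Hepa 1-6 cells (85981 and 53302 counts), and SeC is highest in Kap1 KO hepatocytes (6028 counts).

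The first comparison asked how these tRNAs differed between Kap1 KD and control Hepa 1-6 cells. Counts were scaled by TMM over tRNA and snoRNA together, 0.5 was added, and genes with at least 50 counts over the pair were given a log2 ratio. With 1 library per condition, no ratio has a replicate check. Of the 46 genes with a ratio, 0 were higher by 1.5-fold or more, against 15.3% of all 339 tRNA and snoRNA entries and 8.50% of other tRNA genes, and 19 were lower by that size (41.3%), against 19.2% of all entries and 21.5% of other tRNA genes. With total counts 40 were lower, and with identical copies summed 11 of 33 sequences were. The share over all entries is not given for these settings, so these counts have no background beside them. The median log2 ratio was -0.42 over the 46 genes, -0.13 over 200 other tRNA genes and 0.46 over 93 snoRNA entries. The first of these stayed below 0 with each scaling, and was -0.15 with identical copies summed and -0.20 with no count minimum. Leucine genes made up most of the lower ones, with 15 of 29, beside 4 of 15 Ser genes and 0 of 2 SeC genes.

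Scaling moves every ratio of a pair by 1 amount. Total counts in place of TMM move them by -0.78 in the Hepa 1-6 pair and by -1.09 in the hepatocyte pair, and TMM over tRNA alone moves them by 0.11 and 0.61. Every Leu, Ser and SeC ratio above 0 in Hepa 1-6 cells turns below 0 with total counts. In bulk RNA, fewer cells that make a tRNA and less of it per cell cannot be told apart. The ratios below use TMM over both classes, and a setting that turns the direction of an anticodon sum is named with it. A ratio nearer to 0 than such an amount, on the side from which the amount moves it, turns in the same way.

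Among leucine tRNAs, LeuCAA had 5096 counts in control and 1807 in Kap1 KD cells. Its log2 ratio of -0.88 (95% counting interval -0.95 to -0.80) was the lowest of the 48 anticodons of all tRNAs with at least 100 counts over the pair, though GlyACC, with 65 and 22 counts, lay at -0.93. All 4 LeuCAA genes, the ones with an intron, lay below 0, from -1.01 to -0.37, and 3 of them passed 1.5-fold. The leading gene, chr13.tRNA65-LeuCAA, had 2861 and 1027 counts, with a ratio of -0.86. The direction was the same with total counts, median-of-ratios scaling and TMM over tRNA alone.

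LeuCAG had 10149 counts in control and 4240 after Kap1 KD, and its log2 ratio was -0.64 (-0.69 to -0.59), 46th of 48 from the top, below 0 with each scaling. In this family 8 of 10 genes were lower by 1.5-fold, all of them members of the sets of identical copies. The 2 genes with a sequence of their own, chr3.tRNA1026 and chr8.tRNA168, had 327 and 241 control counts and 232 and 179 Kap1 KD counts. Their ratios were 0.12 and 0.19. The second of these lies in an intron of Sgcz on the opposite strand. The leading gene chr1.tRNA698-LeuCAG had 7778 and 3217 counts and a ratio of -0.65.

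LeuAAG had 16513 counts in control and 12265 in Kap1 KD, the most of the leucine anticodons when both of its overlapping windows are counted. With 1 of these windows left out, LeuCAG had more counts in control (10149), though not in Kap1 KD (4240). The log2 ratio of LeuAAG was 0.19 (0.16 to 0.23) with TMM and -0.58 with total counts. Its interval takes the overlapping windows as separate counts, and is too narrow if they hold the same reads. The overlapping pair chr13.tRNA62 and chr13.tRNA63 carried most of the LeuAAG counts, at 0.21 each, while chr14.tRNA188 and chr11.tRNA2021, identical to chr13.tRNA62, had 115 and 217 control counts, 40 and 84 Kap1 KD counts, and ratios of -0.90 and -0.75. Genes with an identical sequence thus lay on both sides of 0. The 3 short LeuAAG genes had ratios of -0.23, 0.12 and 0.12.

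LeuTAG had 1010 and 490 counts and a log2 ratio of -0.42 (-0.58 to -0.27), and LeuTAA had 942 and 545 counts and a ratio of -0.17 (-0.32 to -0.02), both below 0 with each scaling. Their leading genes, chr14.tRNA703-LeuTAG with 492 and 310 counts and chr10.tRNA1316-LeuTAA with 721 and 407, had ratios of -0.05, which TMM over tRNA alone turns above 0, and -0.20. The other 2 LeuTAG genes passed 1.5-fold, chr11.tRNA401 with 249 and 83 counts at -0.96 and chr7.tRNA861 with 269 and 97 counts at -0.85. The lincRNA exon around chr10.tRNA1316 means that its window can also hold reads of that transcript. In the LeuTAA group, chr13.tRNA991 had 82 and 69 counts and a ratio of 0.37, the second highest among the 40 Leu, Ser and SeC genes with at least 100 counts over the pair.

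Serine tRNAs differed less between the Hepa 1-6 libraries. SerTGA had 85981 counts in control and 53302 in Kap1 KD, with a log2 ratio of -0.07 (-0.09 to -0.05) that TMM over tRNA alone turned to 0.04. SerAGA had 29420 and 16851 counts and a ratio of -0.18 (-0.21 to -0.16), below 0 with each scaling. SerCGA, at 20654 and 13629 counts, had a ratio of 0.02 (-0.01 to 0.05), and -0.75 with total counts. As shares of tRNA counts, SerTGA held 8.12% in control and 8.15% after Kap1 KD, SerAGA 2.78% and 2.58%, and SerCGA 1.95% and 2.08%. SerGCT had 6500 and 3959 counts and a ratio of -0.09 (-0.15 to -0.04) that TMM over tRNA alone turned to 0.01. SerGGA had 18 and 1 counts, too few for a ratio.

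Genes within a serine anticodon spread more widely than the sums. The lowest ratio of the 40 genes was that of chr10.tRNA688-SerCGA, with 509 counts in control and 148 in Kap1 KD, at -1.16, while chr11.tRNA400-SerCGA, with 19929 and 13396 counts, lay at 0.05. Next lowest were chr8.tRNA1008-LeuCAG, with 432 and 133 counts, at -1.08, and chr11.tRNA1911-LeuCAA, with 1286 and 416 counts, at -1.01. The 3 identical SerGCT genes had ratios from -0.65 to -0.51, and chr19.tRNA711-SerGCT, with 2849 and 2025 counts, had 0.13. Counts moved with the ratios here, since the 6 genes with over 5000 counts over the pair had a median of -0.01 and the 40 with 50 to 5000 counts a median of -0.52. Genes with a sequence of their own had a median of -0.11 over 24 genes, and those with a shared sequence -0.65 over 20. The part of read assignment among copies in this difference was not tested.

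Selenocysteine tRNA had 2889 counts in control and 2208 after Kap1 KD, and a log2 ratio of 0.23 (0.15 to 0.31) with TMM that turned to -0.54 with total counts. The gene chr7.tRNA86-SeCTCA had 1958 and 1411 counts and a ratio of 0.15, and chr5.tRNA13-SeCTCA, for which no locus was assigned, had 931 and 797 counts and a ratio of 0.40, the highest of the 40 genes.

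**Figure D4:**
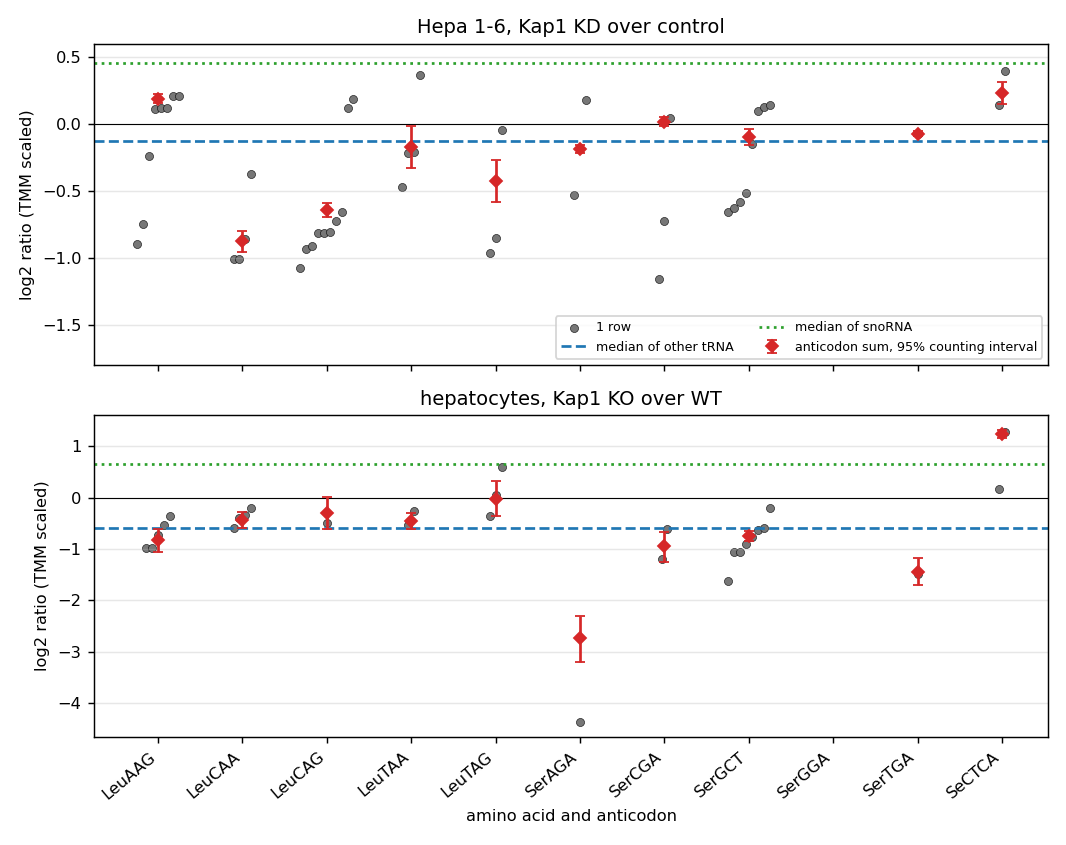
Log2 ratio with TMM scaling of Kap1 KD over control in Hepa 1-6 cells (top) and of Kap1 KO over WT in hepatocytes (bottom), by anticodon. Grey points are genes with at least 50 counts over the pair, red diamonds are anticodon sums with 95% counting intervals, and lines mark the medians of other tRNA and snoRNA; LeuCAA is lowest at the top (-0.88), and SerAGA (-2.73) and SeC (1.23) are the extremes below, both in the same direction with each scaling.

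The second comparison set Kap1 KO against WT hepatocytes. Of 29 genes with a ratio, 2 were higher by 1.5-fold or more (6.90%), against 27.6% of all 261 tRNA and snoRNA entries and 13.9% of other tRNA genes, and 15 were lower (51.7%), against 34.9% of all entries and 51.1% of other tRNA genes. The median was -0.60 over the 29 genes and -0.60 over 137 other tRNA genes, with 0.66 over 95 snoRNA entries. With TMM over tRNA alone, 4 were higher and 4 lower and the median turned to 0.01, and with total counts 0 were higher and 27 lower. Shares over all entries are not given for these scalings. As a group, these tRNAs thus stood where other tRNA stood, and their differences lay among the anticodons. By amino acid, 11 of 12 Ser genes and 4 of 15 Leu genes were lower by 1.5-fold.

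Selenocysteine tRNA had 1511 counts in WT and 6028 in Kap1 KO hepatocytes. Its log2 ratio of 1.23 (1.15 to 1.31) was the highest of the 44 anticodons with at least 100 counts over the pair, and it stayed above 0 with each scaling, at 0.13 with total counts and 1.84 with TMM over tRNA alone. Its share of tRNA counts was 2.61 times as high in Kap1 KO, at 8.44% (8.24% to 8.65%) against 3.24% (3.08% to 3.41%). Most of this came from chr7.tRNA86-SeCTCA, with 1418 and 5850 counts and a ratio of 1.28, whose sequence stands last in the set of long-armed genes. The other, chr5.tRNA13-SeCTCA, had 93 and 178 counts and a ratio of 0.17, which total counts turn below 0.

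SerAGA stood at the other end, with 220 counts in WT and 56 in Kap1 KO hepatocytes. Its log2 ratio of -2.73 (-3.19 to -2.31) was the lowest of the 44 anticodons and lay below 0 with each scaling. The gene chr13.tRNA978-SerAGA had 189 and 15 counts and a ratio of -4.36, the lowest value of any Leu, Ser or SeC gene in this pair. Its identical copies had few counts, such as 18 and 26 for chr13.tRNA86 and 4 and 0 for chr13.tRNA88. Over the 5 copies in the hepatocyte table the summed counts were 214 and 47, with a ratio of -3.03 when TMM was computed with identical copies summed.

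SerTGA had 324 counts in WT and 203 in Kap1 KO, and its log2 ratio of -1.44 (-1.70 to -1.18) was 43rd of 44 and below 0 with each scaling. Its leading gene, chr10.tRNA1095-SerTGA, had 322 and 196 counts and a ratio of -1.48. SerCGA had 214 and 188 counts with a ratio of -0.95 (-1.24 to -0.66), and SerGCT 1662 and 1693 counts with a ratio of -0.74 (-0.84 to -0.64), both below 0 with each scaling. Counts of SerGCT were thus nearly equal in both libraries although the Kap1 KO library was deeper. Within SerGCT, chr13.tRNA976 had 149 and 82 counts and the second lowest ratio of the 25 genes with at least 100 counts, -1.62, and chr19.tRNA711 had 274 and 403 counts and a ratio of -0.21, which TMM over tRNA alone turns above 0. SerGGA had 10 counts in each library.

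Taken over genes, leucine tRNAs lay nearer to the other tRNA in hepatocytes than serine tRNAs did. The median log2 ratios were -0.41 for Leu, -0.98 for Ser and -0.60 for other tRNA genes. By anticodon this did not hold throughout, since SerGCT at -0.74 was nearer than LeuAAG. LeuAAG had 360 counts in WT and 343 in Kap1 KO, with a log2 ratio of -0.84 (-1.05 to -0.62), below 0 with each scaling. This interval too takes the overlapping LeuAAG windows as separate counts. LeuTAA had 633 and 785 counts with a ratio of -0.46 (-0.61 to -0.30), which became 0.15 with TMM over tRNA alone, and LeuCAA 615 and 768 counts with a ratio of -0.45 (-0.60 to -0.29), which became 0.16. LeuCAG had 147 and 203 counts, and its ratio of -0.30 (-0.61 to 0.02) was within counting error of 0. LeuTAG, at 117 and 196 counts, had a ratio of -0.02 (-0.36 to 0.32), and within it chr7.tRNA861 had 19 and 49 counts at 0.59 and chr11.tRNA401 had 41 and 72 counts at 0.05, the third highest of the 25 genes, both turning below 0 with total counts. LeuCAG and LeuTAG both turned above 0 with TMM over tRNA alone, LeuTAG also with median-of-ratios scaling.

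Side by side, 29 genes had a ratio in both pairs, of which 4 (13.8%) were lower by 1.5-fold in both and 0 were higher in both, against 5.91% and 11.8% of all 254 entries with both ratios. Another 11 (37.9%) were lower in hepatocytes and within 1.5-fold in Hepa 1-6 cells, and 5 (17.2%) were the other way round, against 27.6% and 5.51% of all entries. In 1 gene (3.45%) the ratio was lower in Hepa 1-6 cells and higher in hepatocytes, against 3.15% of all entries, and 0 genes had the opposite, against 1.18%. Of 133 other tRNA genes, 7.52% were lower in both, 0.752% higher in both, 40.6% lower in hepatocytes and within 1.5-fold in Hepa 1-6 cells, 5.26% the other way round, 5.26% lower in Hepa 1-6 cells and higher in hepatocytes, and 2.26% the opposite. The anticodons at the ends differed between the pairs, as LeuCAA and LeuCAG were lowest among leucine tRNAs in Hepa 1-6 cells and SerAGA and SerTGA were lowest of all in hepatocytes. Selenocysteine had a ratio above 0 in both pairs with TMM, at 0.23 and 1.23, though not in Hepa 1-6 cells with total counts. Whether the pairs differ cannot be tested with 1 library per condition.

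The mRNA samples of Hepa 1-6 cells were used to describe genes that act on these tRNAs. Their totals were 53605115 and 49915004 counts in control replicates 1 and 2, and 41566888 and 49578846 in Kap1 KD replicates 1 and 2. Trim28, the targeted gene, had 456 and 575 TMM-normalized CPM (counts scaled to a common library size) in the controls against 106 and 78.9 after Kap1 KD, at a log2 fold change of -2.48 (standard error 0.25). Both Kap1 KD samples lay far below both controls, as the labels would have it. Adjusted over all genes, its p was 0.9999 by the quasi-likelihood test of edgeR and 2.57e-10 by DESeq2.

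Hepatocyte-lineage markers were partly present in this line. Albumin (Alb) had 1580 and 1037 CPM in the controls against 975 and 441 after Kap1 KD, and Afp and Apob were also detected, while Apoa1 had 5 to 21 counts per sample and Ttr and Serpina1a at most 11. Summed over the 6 markers, the level was 2307 and 1818 CPM in the controls against 1593 and 898 after Kap1 KD. Afp had 697 and 750 CPM in the controls against 604 and 445, and Apob 30.1 and 30.3 against 14.6 and 11.5. Apoa1 had 0.323 and 0.423 CPM against 0.117 and 0.171. Markers of fibroblasts, leukocytes, endothelium and bile duct summed to between 1.89 and 3.54 CPM per sample. Among these, the fibroblast marker Col1a1 had 0.575 and 1.03 CPM in the controls against 1.10 and 1.52 after Kap1 KD. The other fibroblast marker Col1a2 had 0 or 1 count, and the groups overlapped for Pecam1 and Krt19. The labels of the small RNA hepatocyte samples could not be checked in this way, since those tables list tRNA and snoRNA only.

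Over all 14142 genes tested, 0 were called higher and 0 lower (0% each) by edgeR's quasi-likelihood test at 1.5-fold and an adjusted p under 0.05. This fit had no replicate block, and the fit with a block, given at the end, called 631 genes. At an unadjusted p under 0.05 the fit without a block gave 185 genes (1.31%), and DESeq2 called 2 genes higher and 1 lower. Of 27 genes for synthetases, modification, splicing and export enzymes and selenocysteine factors, 27 were tested, 0 were called by either tool and 0 had an unadjusted p under 0.05 in edgeR, with a median log2 fold change of 0.01 beside -0.02 over all genes. The same was true of 24 genes for RNA polymerase III and its factors, with a median of -0.01. Of 24 listed selenoprotein genes 21 were found and 20 tested, with 0 called by either tool, 1 at an unadjusted p under 0.05 and a median of 0.01.

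The cytosolic leucyl-tRNA synthetase gene Lars had 148 and 128 CPM in the controls against 149 and 130 after Kap1 KD, a log2 fold change of 0.01 (standard error 0.18). The seryl-tRNA synthetase gene Sars had 308 and 414 CPM against 337 and 458, at 0.14 (standard error 0.25). In both genes the groups overlapped. The mitochondrial seryl enzyme gene Sars2 had 13.2 and 17.4 CPM against 11.5 and 19.0, and Sepsecs, whose product makes selenocysteine on its tRNA, had 14.4 and 8.30 against 11.2 and 6.61, again with overlap.

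The mitochondrial leucyl-tRNA synthetase gene Lars2 had 263 and 286 CPM in the controls against 239 and 6905 after Kap1 KD, a log2 fold change of 3.70 (standard error 1.498). Its p in edgeR, adjusted over all genes, was 0.9999. A fit with a replicate block called Lars2, although same-numbered samples share only a number in the labels. Lars2 was high in Kap1 KD replicate 2 alone, and the groups overlapped. In edgeR fits that left out 1 sample, Lars2 was called higher in each of the 3 that kept that replicate and not in the one without it. What set that library apart was not tested.

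**Figure D5:**
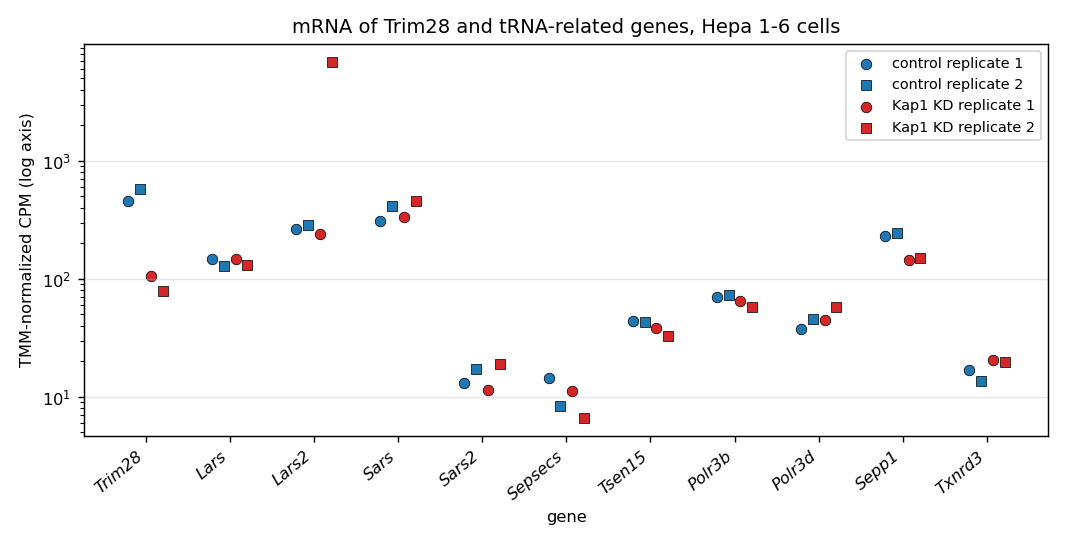
TMM-normalized CPM on a log axis in each of the 4 Hepa 1-6 mRNA samples, for Trim28 and genes that act on or with Leu, Ser and SeC tRNA. Trim28 is lower in both Kap1 KD samples (106 and 78.9 CPM), and Lars2 stands apart in Kap1 KD replicate 2 alone (6905 CPM).

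Sepp1, the gene of selenoprotein P, had 231 and 246 CPM in the controls against 144 and 149 after Kap1 KD. Both Kap1 KD samples lay below both controls, at a log2 fold change of -0.70 (standard error 0.16) whose p in edgeR, adjusted over all genes, was 0.9999. It was the listed selenoprotein gene with an unadjusted p under 0.05 in this fit. The fit with a replicate block called Sepp1, with the same limit as for Lars2. Txnrd3, a thioredoxin reductase gene, had 16.8 and 13.6 CPM against 20.6 and 19.8, at 0.41 (standard error 0.22), with both Kap1 KD samples above both controls.

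Among the other genes with the lowest p in their list, Tsen15, of the endonuclease that removes tRNA introns such as that of LeuCAA, had 44.4 and 42.9 CPM in the controls against 38.6 and 32.8 after Kap1 KD, at -0.29 (standard error 0.19). Polr3b, a large subunit gene of RNA polymerase III, had 70.2 and 72.5 CPM against 65.3 and 57.8, at -0.21 (standard error 0.18), and Polr3d had 37.6 and 46.0 against 44.4 and 58.0, at 0.29 (standard error 0.23). The groups did not overlap for Tsen15 and Polr3b and overlapped for Polr3d. For all 3, the p in edgeR adjusted over all genes was 0.9999.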

How the data were processed

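Small RNA was read from 2 deposited tables of counts per tRNA or snoRNA entry, and mRNA from another deposited table, of counts per gene in 4 Hepa 1-6 samples. The authors' small RNA tables give whole-number counts and a normalized signal, and the deposited signal is the counts divided by 1 factor per library, so counts alone were analysed. The alignment and counting of small RNA are not given in the sources used here. For mRNA, the authors aligned reads to mm9 with TopHat2 2.0.11, keeping 1 alignment per read, and deposited gene counts from HTSeq 0.6.1, per the submitters' notes. The paired hepatocyte columns hold identical values (0 rows differ) and were used once, and 6 per-sample columns were not used (RPKM per the file headers, which scale counts to entry length).

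Samples were grouped by genotype label. The 2nd mRNA sample of each group is numbered 2, and the unnumbered one was taken as replicate 1. Small RNA counts were scaled by TMM in edgeR 4.0.16, and no test was made with 1 library per condition. Intervals are exact binomial ones and cover counting only. The mRNA fit used edgeR's filterByExpr, TMM and quasi-likelihood F test with Benjamini-Hochberg adjustment, called at 1.5-fold and an adjusted p under 0.05, and was run on simulated data. The simulation had 4-fold changes, a fixed spread and no effect shared by same-numbered samples, and all 200 changed genes were recovered. The same fit did not call Trim28 in the real samples, so the simulation does not measure its power there. The p-values measure only the spread between the mRNA samples, which may be technical. DESeq2 1.42.0, other scalings and minimums, a replicate block and leaving out each sample were tried as alternatives.

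Of 21915 gene identifiers, 21806 had a symbol in the mm9 annotation. Loci came from a scan of the mm9 genome for tRNA genes, and serine tRNA gene sequences are not reported here. Named are every Leu, Ser and SeC anticodon, its gene with the most counts, the 3 largest increases and 3 largest decreases per pair among genes with at least 100 counts, Trim28, Lars, Lars2, Sars, Sars2, Sepsecs and the 2 genes of each list with the lowest p. Other genes were named after their values were seen. The members and gene lists were chosen with earlier results of these data known. Other tools were Python 3.11.15, numpy 2.4.6, pandas 2.3.3, scipy 1.17.1, matplotlib 3.10.9 and R 4.3.3.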

Additional observations from a re-analysis of the deposited data

Results flagged for a closer look

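LeuAAG lay above 0 in 1 pair and below 0 in the other, and this opposite direction is why it is listed here. Its log2 ratio with TMM was 0.19 for Kap1 KD over control Hepa 1-6 cells (16513 counts in control and 12265 in Kap1 KD) and -0.84 for Kap1 KO over WT hepatocytes (360 in WT and 343 in Kap1 KO), so the hepatocyte value was lower by a log2 difference of -1.03. The difference was not tested, since each condition has 1 library. The Hepa 1-6 value becomes -0.58 with total counts, and then both pairs lie below 0. SerCGA also lay on opposite sides of 0, at 0.02 in Hepa 1-6 cells and -0.95 in hepatocytes. Its Hepa 1-6 value was within counting error of 0 (-0.01 to 0.05).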

How the results depend on the processing

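With total counts in place of TMM, the median log2 ratio of Leu, Ser and SeC genes went from -0.42 to -1.19 in Hepa 1-6 cells and from -0.60 to -1.69 in hepatocytes. Genes lower by 1.5-fold then numbered 40 in place of 19 and 27 in place of 15, and 0 in place of 2 were higher in hepatocytes. With TMM over tRNA only, the hepatocyte median turned to 0.0124, with 4 genes higher and 4 lower. Shares over all tRNA and snoRNA entries are not given for the alternative settings, here or below. Total counts move every ratio by -0.78 in the Hepa 1-6 pair and -1.09 in the hepatocyte pair, and TMM over tRNA only moves every hepatocyte ratio by 0.61.

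With no count minimum, the Hepa 1-6 median was -0.20, and 3 genes of 55 were higher in Hepa 1-6 cells in place of 0 and 9 of 54 in hepatocytes, where the median was -0.32. A minimum of 500 counts gave 11 lower genes of 25 in Hepa 1-6 cells, and a median of -1.07 with 1 gene higher and 6 lower in hepatocytes, where 7 genes were left. The minimum also sets which entries enter TMM, and at 500 counts this alone moves every ratio by -0.18 in the Hepa 1-6 pair and -0.53 in the hepatocyte pair. With identical copies summed, the Hepa 1-6 median was -0.15, 1 of 33 was higher and 11 were lower in Hepa 1-6 cells, and 1 of 26 was higher in hepatocytes. A pseudocount of 5 left 1 higher in hepatocytes. At 2-fold, 4 were lower in Hepa 1-6 cells, and 1 was higher and 6 lower in hepatocytes. The Hepa 1-6 median stayed below 0 with every alternative.

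As a share of all counts in the table, the 3 amino acids held 0.683%, 0.374%, 0.192% and 0.0951% in control, Kap1 KD, WT and Kap1 KO libraries. With the gene of highest count left out, the shares of tRNA counts were 9.58%, 9.33%, 9.72% and 7.05%, so that the hepatocyte order turned. Leaving out 1 of the 2 overlapping LeuAAG windows, an alternative chosen after seeing the data, gave 16.3% and 15.98% in control and Kap1 KD.

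For mRNA, DESeq2 called 3 genes in place of 0. Leaving out 1 sample at a time, with the lone sample assumed to vary like the other group, edgeR called 3 to 65 genes, and 0 to 1 of the listed genes that act on or with tRNA; the cause was not tested. Of these, Lars2 was the gene called. With DESeq2 size factors or no low-count filter, edgeR still called 0 genes.

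Same-numbered mRNA samples share only a number in the labels. Their deviations from the group means had a correlation of 0.80, and with a replicate block edgeR called 631 genes in place of 0, 2 of them from the lists (Lars2 and Sepp1). At an unadjusted p under 0.05 in edgeR, the block gave 4627 genes in place of 185, and 25 listed genes in place of 1. The cause was not tested.

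Of 80 alternative values, 41 were marked as moved from the main value, 38 as the same and 1 as turned in sign. The value that turned was the hepatocyte median, at 0.0124 with TMM over tRNA alone in place of -0.60. Only the median log2 ratios have a sign to turn. The other values are counts of genes and shares, which are never below 0, so an unchanged sign says nothing about them.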
